A study of Mus musculus with 16 samples.

Results

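The genes described here are 40 that lymphocytes and antigen-presenting cells express, followed through bulk RNA-seq of whole mouse pancreas. They were taken by symbol from the deposited table of raw counts and sorted by known role into 12 B cell genes, 10 MHC class II genes, 13 T cell genes and 5 genes of lymphocyte homing or of lymphocytes in general. All 40 were among the 24411 genes of the table, and 34 of them were among the 13660 genes that passed the filter on low counts: all 12 B cell genes, all 10 MHC class II genes, 7 of 13 T cell genes and all 5 homing and shared genes. The mice were male C57BL6/J animals of 12 weeks of age, each giving 1 library. WT mice (5) and leptin-deficient Lep(ob/ob) mice (7) had received control water, and a further 4 Lep(ob/ob) mice, called CCKR-I, had received a cholecystokinin receptor antagonist in the drinking water from 6 weeks of age for 6 weeks. Of the latter, mice 69 and 72 were given proglumide at 0.1 mg/ml and mice 74 and 76 lorglumide at 0.05 mg/ml. Final body weight was 27.7 ± 3.22 g in WT, 51 ± 1.98 g in Lep(ob/ob) and 54.8 ± 2.22 g in CCKR-I mice (mean ± SD).

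The sources differ on where the WT mice came from: the labels have them bred in house from Jackson Laboratories stock, while the methods of the study have them bought, as the Lep(ob/ob) mice were. The labels also put each library in a batch, RQ14163 or RQ15502, called A and B here, without saying what a batch was. Of the WT mice, 5489, 5492 and 5494 were in batch A and 58 and 59 in batch B. Of the untreated Lep(ob/ob) mice, 441, 472, 417 and 447 were in batch A and 461, 463 and 464 in batch B, which also held the 4 CCKR-I mice. Depth was 19.2 to 34.5 M counted reads per library for batch A against 9.87 to 15.9 M for batch B. The 50 most counted genes, largely acinar enzymes, took 79.2 to 85% of the reads of a batch A library and 49.3 to 77.1% of a batch B library. Reads on the Lep gene numbered 13 to 55 in WT mice, 200 to 12256 in untreated Lep(ob/ob) mice and 783 to 11181 in CCKR-I mice, which does not check the genotype label, because the ob allele is a nonsense change that leaves the transcript.

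B cells carry a surface immunoglobulin whose signal runs through the CD79 chains, T cells carry a receptor whose signal runs through the CD3 chains, and both are gathered in lymph nodes and other lymphoid organs by chemokine receptors. MHC class II molecules present peptides to T helper cells, are made by B cells, dendritic cells and macrophages, and depend on the transcriptional coactivator CIITA. The healthy exocrine pancreas holds few lymphocytes, and lymph nodes and fat lie close against it. In bulk tissue, fewer cells of a type and less RNA per cell cannot be told apart.

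Many genes of the MHC class II list share a documented promoter layout, an X box followed by a Y box, and their promoters are shown for that reason. The list also holds Ciita, the gene of the coactivator. RefSeq promoters on GRCm38.p6, running from 250 bases before to 50 bases after the start, were found for 27 of the 40 members, as 35 promoters. The 8 MHC class II promoters included both of H2-DMa and none of Cd74, H2-Ab1 or Ciita. The letters GCAAC, an element within many X boxes, followed after 15 to 35 bases by ATTGG, the reverse complement of the CCAAT letters that make the core of the Y box, were searched on both strands. This pair stood in 4 of 8 MHC class II promoters (50%), those of H2-Aa, H2-Eb1, H2-Oa and H2-Ob, against 1.02% of all 32851 promoters of the same length. It stood in 0 of 11 B cell promoters, 0 of 13 T cell promoters and 0 of 3 homing and shared promoters. With the looser letters GNAAC, chosen after the windows were seen, H2-DMb1 was added, making 5 of 8 MHC class II promoters (62.5%) against 3.51% of all, with 1 of 13 T cell promoters (7.69%), 0 of 11 B cell promoters and 0 of 3 homing and shared promoters. The letters CCAAT on either strand, which overlap the pair, were in 7 of 8 MHC class II promoters (87.5%) and in 37.4% of all. The octamer ATGCAAAT, searched on both strands, was in 0 of the 35 member promoters and in 1.74% of all. Below are 3 windows of 100 bases, from 110 to 11 bases before the RefSeq start and on the strand of the gene, with the pair in capitals.
H2-Aa, chr17:34287834-34287933, minus strand: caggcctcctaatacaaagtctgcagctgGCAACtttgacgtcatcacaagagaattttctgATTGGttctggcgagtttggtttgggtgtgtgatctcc
H2-Eb1, chr17:34305757-34305856, plus strand: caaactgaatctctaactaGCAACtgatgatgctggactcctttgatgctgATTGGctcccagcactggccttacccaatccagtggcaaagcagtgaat
H2-Ob, chr17:34238795-34238894, plus strand: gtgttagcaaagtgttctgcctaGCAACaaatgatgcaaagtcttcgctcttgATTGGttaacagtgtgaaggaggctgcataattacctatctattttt
The first element began 81, 91 and 87 bases before the start in H2-Aa, H2-Eb1 and H2-Ob, and 28, 27 and 25 bases lay between the elements. In H2-Oa the first element began 76 bases before the start, with 28 bases between. A match of letters is a description of these windows and not a measured binding site.

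Of the 10 MHC class II genes, 8 lie within a stretch of chromosome 17, between 34092340 and 34316674 on GRCm38, while Ciita lies on chromosome 16 and Cd74 on chromosome 18. The 3 CD3 chain genes lie together on chromosome 9 between 44969572 and 45009627. Per kilobase of exon, the highest median levels over the 16 mice were those of Cd74, the invariant chain that fills the class II groove during assembly, at 27.6 CPM per kb, H2-Eb1 at 11.8 and H2-Aa at 7.6. CPM are counts scaled to the size of the library, here with TMM factors. The highest B cell gene on that scale was Jchain, the joining chain of secreted IgM and IgA, at 3.77 CPM per kb, while Cd79a and Cd79b stood at 1.32 and 1.13. Among T cell genes Tcf7, a transcription factor that other cell types also express, stood at 1.69 and Cd2 at 0.412. The lowest of all 40 was Pax5, the B lineage transcription factor, at 0.028 CPM per kb.

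The main pattern in these genes was the difference between mice of the same group. Lep(ob/ob) mouse 463 had the highest level of all 16 mice for 25 of the 34 tested genes and WT mouse 5492 for 7 more. Lep(ob/ob) mouse 447 was lowest for 16 genes, Lep(ob/ob) mouse 441 for 8 and CCKR-I mouse 74 for 6. Mice 463 and 447, at opposite ends, were thus both untreated Lep(ob/ob) mice, though of different batches, B and A. Compared with mouse 447, mouse 463 was higher for 33 of 34 genes, the exception being Tcf7, and its median difference over the genes was 3.40 on the log2 scale, or 10.6-fold. The median difference between these mice was 17.5-fold for the B cell genes, 8.02-fold for the MHC class II genes, 6.99-fold for the T cell genes and 7.79-fold for the homing and shared genes. Mouse 463 was also higher than mouse 464 of its own group and batch for 34 of 34 genes, by a median of 4.04-fold. In batch A, Lep(ob/ob) mouse 417 exceeded mouse 447 for 33 of 34 genes, by a median of 4.98-fold. Similarly, WT mouse 5492 exceeded WT mouse 5494 of the same batch for 34 of 34 genes, by a median of 2.39-fold, and CCKR-I mouse 69 exceeded CCKR-I mouse 74 for 34 of 34, by a median of 4.10-fold.

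**Figure D1:**
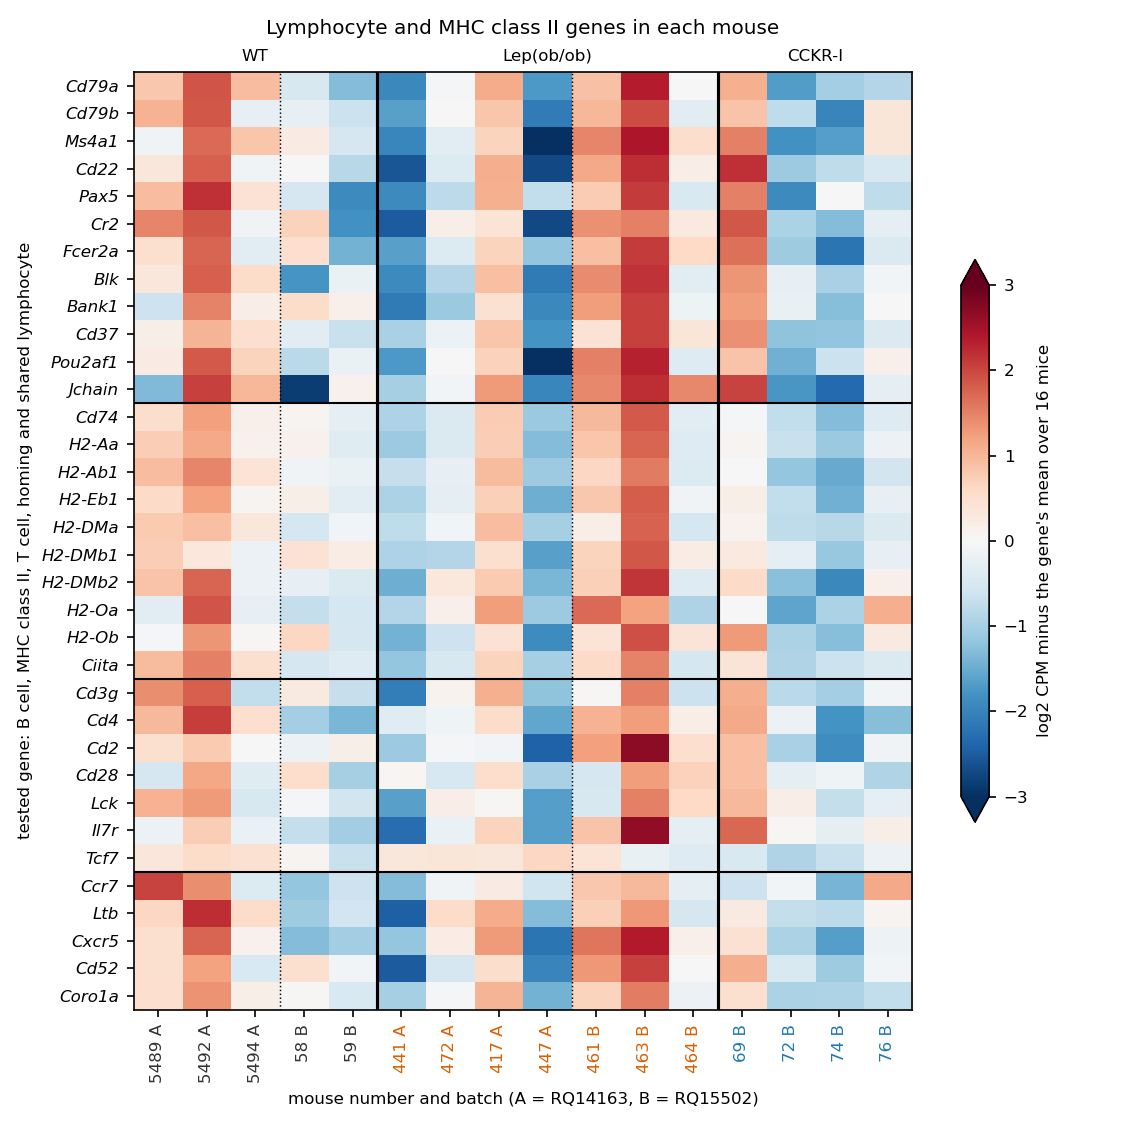
Each row is 1 of the 34 tested genes and each column 1 mouse, ordered by group and batch. Colour gives the log2 CPM of the gene minus its mean over the 16 mice. Mice 463, 5492 and 69 are high across nearly all rows, and mice 441, 447, 72 and 74 are low, with Tcf7 the row that departs most.

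The distance from the lowest to the highest mouse of a group had a median over the 34 genes of 3.74 (log2) in Lep(ob/ob), 2.29 in CCKR-I and 2.17 in WT mice. A range tends to grow with the number of mice, here 7, 4 and 5, and the CCKR-I mice were all of batch B. These ranges therefore do not rank the groups by spread. Within Lep(ob/ob) mice the highest was mouse 463 for 32 genes, in CCKR-I mice it was mouse 69 for 31, and in WT mice it was mouse 5492 for 32. After group and batch were fitted, the residual SD of log2 CPM had a median of 1.18 over the 34 genes, against 0.322 over all 13660 genes, and 33 of 34 genes lay above the latter. By class, this median was 1.46 for B cell genes, 1.17 for T cell genes, 1.16 for homing and shared genes and 0.886 for MHC class II genes. The spread was not limited to genes with few reads. Across the 16 mice, CPM of Cd74 spanned 8.86-fold, H2-Aa 8.30-fold, H2-Ab1 8.51-fold and H2-Eb1 9.84-fold.

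As a description across 16 mice that share tissue, library preparation and scaling, Pearson's r between members had a median of 0.86 over the pairs of B cell genes, 0.90 over MHC class II pairs, 0.80 over homing and shared pairs and 0.64 over T cell pairs. Cd22, an inhibitory receptor of B cells, was closest to the median of its other class members (r = 0.968), and Jchain was farthest from it among B cell genes (r = 0.736). In the MHC class II list this r ran from 0.67 for H2-Oa, which was counted at 0 to 18 reads per mouse, to 0.967 for H2-Aa. Lck, the kinase of the CD4 and CD8 coreceptors, was the closest T cell gene (r = 0.816). Tcf7 stood apart from the other T cell genes (r = 0.0774), and its 16 mice spanned 1.52 on the log2 scale against 5.81 for Ms4a1. Outside the list, the genes most like the B cell median were Ikzf1 (r = 0.981), Ptprc (r = 0.971) and Napsa (r = 0.97). The most like the MHC class II median were Il2rg (r = 0.962), Psmb8 (r = 0.961) and Map4k1 (r = 0.952). For the T cell median, Ikzf1 stood at r = 0.955 and Itga4 at r = 0.952, behind a gene whose symbol had been turned into a date in the table (r = 0.965).

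Class levels, the median log2 CPM over the tested genes of a class, set the mice side by side. For the B cell genes the level was 1.30, 2.38, 0.96, 0.61 and 0.16 in WT mice 5489, 5492, 5494, 58 and 59. Across the Lep(ob/ob) mice its lowest value was -1.64 (mouse 447), its median 0.74 and its highest 2.98 (mouse 463). In CCKR-I mice 69, 72, 74 and 76 it was 2.00, -0.53, -0.25 and 0.51. The WT and CCKR-I mice thus lay inside the range of the untreated Lep(ob/ob) mice.

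The MHC class II level was 1.98, 2.28, 1.49, 1.42 and 1.28 in the WT mice in the same order. It ran from 0.09 (mouse 447) through a median of 1.20 to 3.03 (mouse 463) in Lep(ob/ob) mice, and was 1.69, 0.69, 0.34 and 0.90 in CCKR-I mice 69, 72, 74 and 76. Of the 4 classes this one was the most even among WT mice, and 3 of 4 CCKR-I mice and 4 of 7 untreated Lep(ob/ob) mice were below every WT mouse.

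The T cell level was 0.23, 0.94, -0.24, -0.41 and -0.90 in WT mice, and 0.63, -0.90, -1.07 and -0.62 in CCKR-I mice. Lep(ob/ob) mice ran from -1.99 through a median of -0.19 to 1.17. For the homing and shared genes the WT values were 0.89, 1.51, -0.14, -1.76 and -1.26, the Lep(ob/ob) values ran from -1.75 to 1.93 with a median of -0.15, and the CCKR-I values were 0.01, -1.22, -1.49 and -0.02. In both classes the groups overlapped. The 3 WT mice of batch A were above the 2 WT mice of batch B in all 4 classes.

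**Figure D2:**
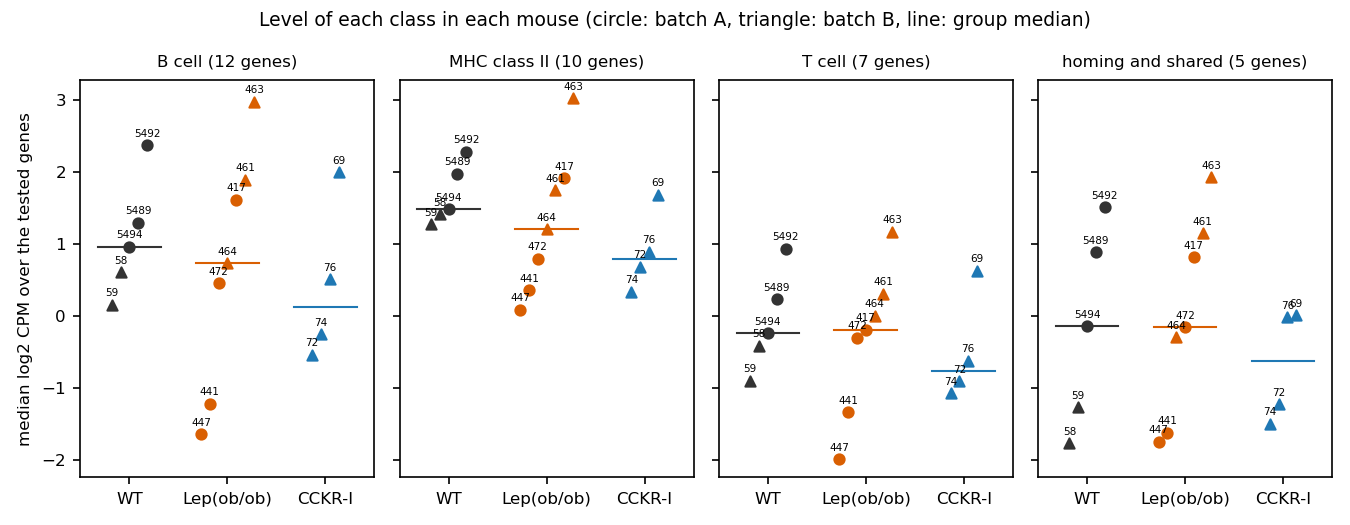
Median log2 CPM over the tested genes of each class is drawn for each mouse, with circles for batch A, triangles for batch B and a line at the group median. The groups overlap in all 4 classes, and Lep(ob/ob) mice 447 and 463 mark the lowest and the highest B cell, MHC class II and T cell levels.

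Lep(ob/ob) against WT addresses whether the obese pancreas differed in these genes. Over all 16 mice with batch as a term, 0 of 34 genes passed an adjusted p of 0.05 by edgeR's quasi-likelihood test, where 9.07% of the 13660 genes did. At an unadjusted p under 0.05 there were 0 of 34 by edgeR and 0 of 34 by DESeq2, and DESeq2 called 0 after adjustment, where it called 12.4% of all genes. At that unadjusted threshold edgeR had 23.8% and DESeq2 24.6% of all genes. The median log2 fold change of the members was -0.21, with 8 of 34 above 0, against a median of -0.02 and 47.7% above 0 over all genes. Leaving out 1 mouse gave medians from -0.62 (without WT mouse 59) to 0.26 (without WT mouse 5492, with 24 of 29 tested members above 0), and the median was also above 0 without Lep(ob/ob) mouse 441 (0.048) or 447 (0.074). Class medians were -0.25 for B cell genes, -0.18 for MHC class II genes, 0.04 for T cell genes and -0.27 for homing and shared genes. Lowest among the members, the adjusted p was 0.611. For 0 of 34 genes were the groups apart, which held for 2.92% (higher) and 1.12% (lower) of all genes.

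CCKR-I against Lep(ob/ob) asks what the antagonists did in obese mice, and again 0 of 34 genes were called, where 0.0586% of all genes were. At an unadjusted p under 0.05, edgeR had 2 members, both lower (Cd74 and H2-DMb1), where 14.3% of all genes passed that threshold and 6.73% did so with a lower level, and DESeq2 had 5, where it had 15.5% of all genes. DESeq2 called 0 of the 17 members to which it gave an adjusted p, where it called 0.945% of all genes. All 34 fitted log2 fold changes were below 0, with a median of -0.74 against -0.01 over all genes, of which 48.8% were above 0. The class medians were -1.04 for MHC class II, -0.85 for homing and shared, -0.72 for B cell and -0.44 for T cell genes. Their smallest adjusted p was 0.323. Without mouse 463 alone, 12 of 29 tested log2 fold changes were above 0, the median was -0.06 and 0 members had an unadjusted p under 0.05 (9.32% of all genes). Without CCKR-I mouse 69 alone the median was -1.41, with 1 of 34 above 0 and 11 at an unadjusted p under 0.05, where 21.5% of all genes passed. In a fit of batch B alone, 13 of 36 tested members passed that threshold, where 14.2% of all genes did. In either fit 0 were called by edgeR, where 0.0433% and 0.0142% of all genes were.

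CCKR-I against WT shares its mice with both comparisons above. It called 0 of 34 members, where 5.57% of all genes were called, with 3 lower at an unadjusted p under 0.05 by edgeR (H2-Ab1, Cd74 and H2-DMb1) where 16.7% of all genes passed and 7.28% did so with a lower level, and 6 by DESeq2, where 17.6% of all genes passed. After adjustment DESeq2 called 0 of 34 members and 7.79% of all genes. The median log2 fold change was -0.95, with Il7r the 1 member of 34 above 0, where 47.2% of all genes were, and leaving out 1 mouse gave medians from -1.65 (without mouse 69) to -0.60 (without mouse 463). The class medians were -1.25 for MHC class II, -0.998 for homing and shared, -0.92 for B cell and -0.63 for T cell genes. The smallest adjusted p was 0.259, for H2-Ab1. Groups were apart for 0 of 34 members in both CCKR-I comparisons, and for 3.29% (higher) and 2.53% (lower) of all genes against Lep(ob/ob) and 6.27% and 5.22% against WT.

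**Figure D3:**
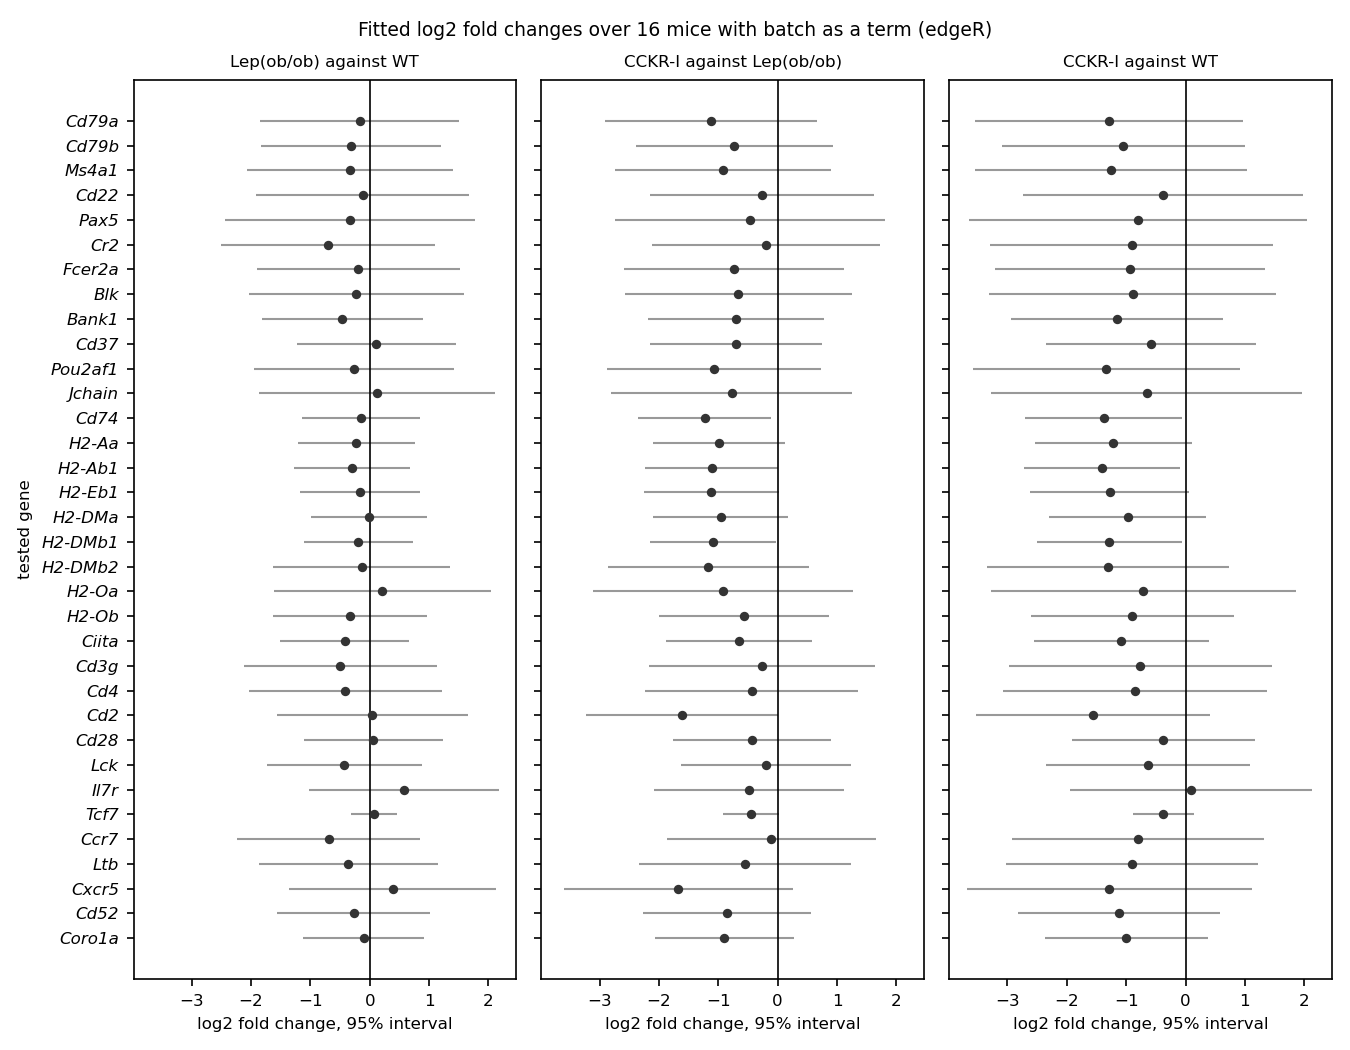
Points are fitted log2 fold changes of the 34 tested genes in the 3 comparisons, with bars for the 95% confidence interval. Intervals of Cd74 and H2-DMb1 lie below 0 in both CCKR-I comparisons and that of H2-Ab1 in CCKR-I against WT, all others include 0, and 0 of 34 genes passed an adjusted p of 0.05.

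The direction of the Lep(ob/ob) difference turned with the batch. In batch A the mean log2 CPM of the Lep(ob/ob) mice was below that of the WT mice for all 34 genes, with a median difference of -1.32, where 58.1% of all 13660 genes were below 0. In batch B it was above for all 34 genes, with a median difference of 1.30, where 52% of all genes were above 0. Fitted alone by edgeR, batch A had 1 of 35 tested members above 0, a median log2 fold change of -1.14 and 3 members at an unadjusted p under 0.05, where 21.4% of all genes passed. Batch B alone had 36 of 36 above 0, a median of 1.71 and 9 at that threshold, where 16.9% of all genes passed. Both fits called 0 members, where 8.66% and 0.057% of all genes were called. Left out in turn, WT mouse 5492 gave 31 of 34 genes below 0 and a median of -0.96 in batch A, and mouse 463 gave 33 of 34 above 0 and a median of 0.82 in batch B. The pair of directions, below in A and above in B, was found in 24.9% of all genes. For the B cell genes the median difference was -1.80 in batch A and 1.63 in batch B. For the MHC class II genes these were -1.15 and 0.89, for the T cell genes -1.33 and 0.85, and for the homing and shared genes -1.45 and 1.31. Cr2 was lowest in batch A (-2.23) and Jchain highest in batch B (3.07), while Tcf7 was nearest to 0 in both (-0.03 and 0.22).

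A test of this turn, the interaction of genotype and batch over the 12 untreated mice, called 0 of 31 members and 0 of 13189 genes after adjustment. At an unadjusted p under 0.05 it had 21 of 31 members (67.7%), all more positive in batch B, against 11.9% of all genes in either direction and 5.53% in that direction. The gene with the smallest p was Cd4, the coreceptor of T helper cells, with an interaction of 4.36 (log2, SE 1.09, adjusted p = 0.318 by edgeR). Leaving out 1 mouse gave 0 to 2 called members, the 2 without Lep(ob/ob) mouse 464, and 4 to 28 at the unadjusted threshold. The fewest came without WT mouse 5492 (4 of 30), WT mouse 59 (7 of 36), Lep(ob/ob) mouse 463 (7 of 30) and WT mouse 58 (10 of 36), while 15 of 32 and 18 of 30 were at it without Lep(ob/ob) mice 441 and 447. The share of all genes was not worked out for the fits without 1 mouse. Whether these counts move with those of other genes is therefore not known. Since the members move together from mouse to mouse, these genes are not separate pieces of evidence.

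Within batch B, the CCKR-I mean was below the Lep(ob/ob) mean for all 34 genes, with a median difference of -1.22, from -2.29 for Jchain to -0.48 for Tcf7, where 51.2% of all genes were below 0. Without mouse 463, an alternative chosen after seeing the data, 32 of 34 were below and the median difference was -0.75. Against the 2 WT mice of that batch the CCKR-I mean was higher for 19 genes and lower for 15, with a median difference of 0.06, where 48.7% of all genes were higher. Without CCKR-I mouse 69 it was higher for 9 genes with a median of -0.35, without WT mouse 59 for 13 genes with a median of -0.25, and without CCKR-I mouse 76 for 16 genes with a median of -0.055. An edgeR fit of batch B alone had 25 of 36 tested members above 0 with a median log2 fold change of 0.47, 0 called (0.0926% of all genes) and 0 at an unadjusted p under 0.05 (9.96% of all genes). These stand beside the -0.95 of the fit over both batches, in which the WT mice of batch A also count. By class, 8 of 10 MHC class II genes were lower than in the WT mice of batch B and 9 of 12 B cell genes were higher.

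**Figure D4:**
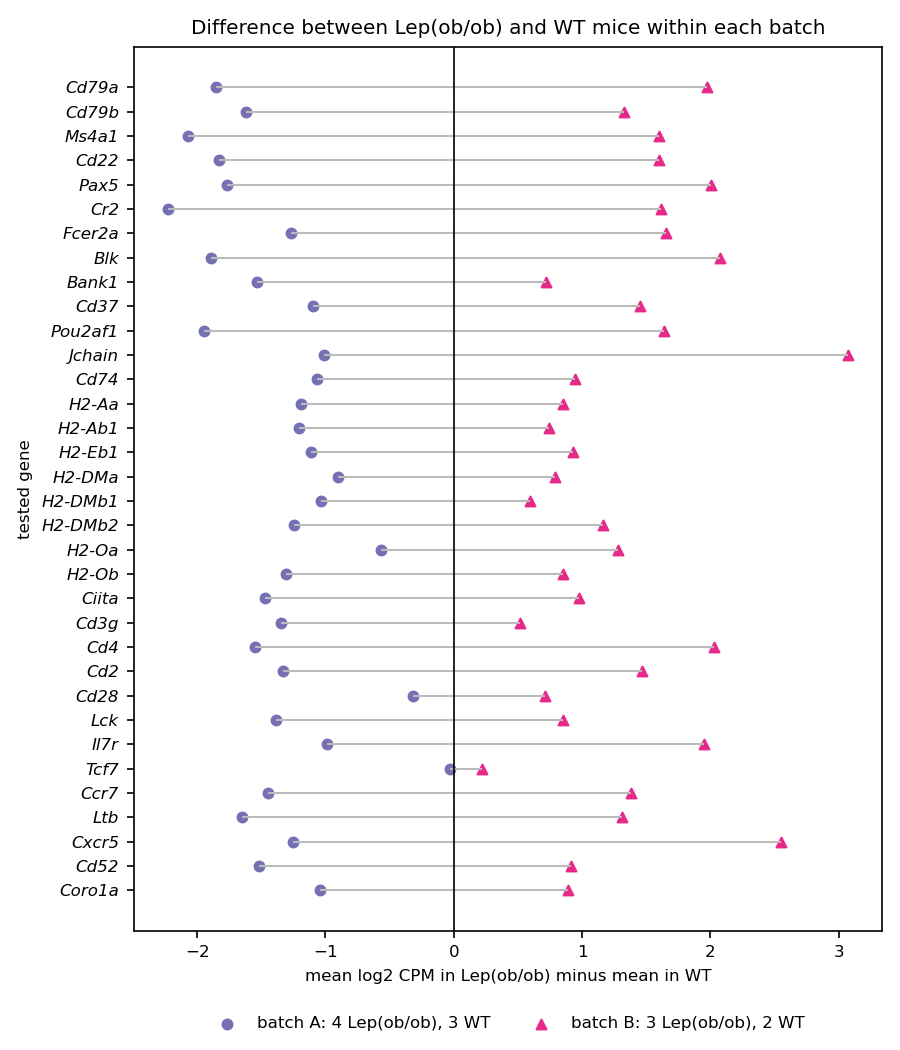
For each tested gene the mean log2 CPM in Lep(ob/ob) minus that in WT is drawn for batch A (circles, 4 and 3 mice) and batch B (triangles, 3 and 2 mice). All 34 circles are left of 0 and all 34 triangles right of it.

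Among the B cell genes, Ms4a1 (chr19:11249675-11266241) encodes CD20, a surface protein of mature B cells. Its level was 2.35, 8.49, 4.59, 3.02 and 1.76 CPM in WT mice 5489, 5492, 5494, 58 and 59, and 7.45, 0.633, 0.729 and 3.30 CPM in CCKR-I mice 69, 72, 74 and 76. Lep(ob/ob) mice ran from 0.140 CPM (mouse 447, 3 reads) through a median of 3.70 to 14.0 CPM (mouse 463). The spread within the obese group enclosed every other mouse. Its log2 fold change was -0.34 (SE 0.82, adjusted p = 0.844, edgeR) for Lep(ob/ob) against WT and -0.92 (SE 0.86, adjusted p = 0.616) for CCKR-I against Lep(ob/ob).

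Cd79b (chr11:106311341-106314762), a signalling chain of the B cell receptor, was at 3.79, 6.75, 1.47, 1.46 and 1.09 CPM in WT mice. Lep(ob/ob) mice ran from 0.326 (mouse 447) through 1.75 to 7.23 CPM (mouse 463), and CCKR-I mice were at 3.27, 1.003, 0.364 and 2.29 CPM. Again mouse 5492 and mouse 463 were the highest and the groups overlapped. The log2 fold changes were -0.31 (Lep(ob/ob) against WT), -0.73 (CCKR-I against Lep(ob/ob)) and -1.05 (CCKR-I against WT), with standard errors of 0.72 to 0.97.

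Jchain marks antibody-secreting cells more than resting B cells. It was at 3.64, 38.95, 18.8, 1.19 and 10.2 CPM in WT mice, at 38.1, 2.69, 1.76 and 7.61 CPM in CCKR-I mice, and from 2.33 (mouse 447) through 22.9 to 43.7 CPM (mouse 463) in Lep(ob/ob) mice. Each group thus held mice at both a low and a high level, and the difference of means was -1.01 in batch A and 3.07 in batch B. Over both batches its log2 fold change was 0.12 (SE 0.94, adjusted p = 0.959) for Lep(ob/ob) against WT.

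Cr2, the complement receptor of B cells and follicular dendritic cells, had the smallest p of the class in Lep(ob/ob) against WT, with a log2 fold change of -0.71 (SE 0.85, adjusted p = 0.663). It ranged from 0.182 to 3.67 CPM in WT mice, from 0.0465 (1 read) to 2.84 CPM in untreated Lep(ob/ob) mice and from 0.304 to 3.63 CPM in CCKR-I mice. Bank1, a B cell scaffold protein, and Cd37, a tetraspanin of mature B cells, had log2 fold changes of -0.46 and 0.11 in that comparison and of -0.70 each in CCKR-I against Lep(ob/ob). Without mouse 463 the latter were -0.01 and 0.15.

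The remaining B cell genes were Cd79a, the partner chain of Cd79b, Cd22, Pax5, Fcer2a, which encodes the low-affinity IgE receptor CD23, Blk, a kinase of B cell receptor signalling, and Pou2af1, the coactivator of octamer factors in B cells. In WT mice each of these 6 was highest in mouse 5492, in Lep(ob/ob) mice in mouse 463 and in CCKR-I mice in mouse 69. Cd79a spanned 0.73 to 7.48 CPM in WT mice, 0.426 to 10.5 CPM in untreated Lep(ob/ob) mice and 0.528 to 4.17 CPM in CCKR-I mice. Pou2af1 spanned 0.64 to 4.54, 0.0465 (1 read) to 6.34 and 0.369 to 2.24 CPM in these groups. Pax5 had 0 reads in mice 59, 441 and 72, which allows up to 0.182, 0.213 and 0.158 CPM. Of these genes, Pou2af1 and Cd79a had the lowest log2 fold changes in CCKR-I against Lep(ob/ob), -1.07 (SE 0.85) and -1.12 (SE 0.85), and Cd22 the one nearest 0, -0.26 (SE 0.89).

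Cd74 was the most counted member. Its level was 75.0, 123, 57.4, 54.8 and 42.0 CPM in WT mice and 50.5, 31.1, 21.1 and 39.5 CPM in CCKR-I mice. Untreated Lep(ob/ob) mice ran from 23.9 (mouse 447) through 41.5 to 187 CPM (mouse 463). Mouse 463 stood well above the rest, and 3 of 4 CCKR-I mice and 4 of 7 untreated Lep(ob/ob) mice lay below every WT mouse. The log2 fold change was -0.15 (SE 0.47, adjusted p = 0.888) in Lep(ob/ob) against WT, -1.23 (95% interval -2.35 to -0.12, unadjusted p = 0.0326, adjusted p = 0.323) in CCKR-I against Lep(ob/ob), and -1.38 (SE 0.63, adjusted p = 0.274) in CCKR-I against WT, all by edgeR. Without mouse 463 its log2 fold change in CCKR-I against Lep(ob/ob) was -0.61.

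H2-Ab1 (chr17:34257689-34269419) encodes the beta chain of the I-A class II molecule. It was at 34.1, 49.6, 23.7, 16.6 and 15.4 CPM in WT mice and at 18.1, 7.97, 6.20 and 12.2 CPM in CCKR-I mice. In Lep(ob/ob) mice it ran from 8.37 (mouse 447) through 14.95 to 52.7 CPM (mouse 463). CCKR-I mouse 69 lay within the WT range and the other 3 below it. For CCKR-I against WT the log2 fold change was -1.40 (SE 0.62, unadjusted p = 0.0376, adjusted p = 0.259, edgeR), and within batch B the difference of means was -0.64.

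H2-Aa (chr17:34282744-34287823) and H2-Eb1 (chr17:34305867-34316674), the alpha chain of I-A and the beta chain of I-E, showed the same order of CCKR-I mice. In CCKR-I mice 69, 72, 74 and 76, H2-Aa was at 31.4, 18.7, 13.7 and 26.4 CPM. H2-Eb1 was at 25.9, 13.7, 8.38 and 19.4 CPM in them. Their log2 fold changes were -0.99 and -1.11 in CCKR-I against Lep(ob/ob), and both have the letter pair shown above, as does H2-Ob, for which it was -0.56. Without mouse 463 the values were -0.36 for H2-Aa, -0.48 for H2-Eb1 and 0.21 for H2-Ob. H2-Ob encodes a chain of the DO molecule that restrains peptide loading in B cells, and it was counted at 0.279 to 5.37 CPM.

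Ciita (chr16:10480059-10528418), the coactivator on which the class depends, was at 3.71, 5.55, 2.66, 1.28 and 1.40 CPM in WT mice, with the 3 mice of batch A above the 2 of batch B. Lep(ob/ob) mice ran from 0.782 (mouse 441) through 1.31 to 5.48 CPM (mouse 463), and CCKR-I mice were at 2.47, 0.95, 1.15 and 1.35 CPM. WT mice of batch B and 3 of the CCKR-I mice were thus at like levels. Its log2 fold change was -0.42 (SE 0.52, adjusted p = 0.669) for Lep(ob/ob) against WT, with -1.47 in batch A and 0.97 in batch B. H2-DMb1, a chain of the peptide loading molecule DM, shares 22.65% of its 50-base stretches with another gene, H2-DMb2, so counts of this pair may have been split between them.

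H2-DMb1 was at 3.87, 2.87, 1.98, 3.11 and 2.67 CPM in WT mice and at 2.83, 1.85, 0.972 and 1.89 CPM in CCKR-I mice, while Lep(ob/ob) mice ran from 0.651 (mouse 447) through 2.68 to 8.59 CPM (mouse 463). It was highest in mouse 5489 and not in mouse 5492 among the WT mice. Its log2 fold change was -1.09 (SE 0.50, unadjusted p = 0.0445, adjusted p = 0.345) in CCKR-I against Lep(ob/ob) and -1.29 (SE 0.58, unadjusted p = 0.0406, adjusted p = 0.269) in CCKR-I against WT, by edgeR. Leaving out each mouse, these ran from -1.35 to -0.46 and from -1.64 to -0.94, both nearest 0 without mouse 463. H2-DMa, the other DM chain, had -0.96 (SE 0.54) and -0.98 (SE 0.63) in these comparisons. The least counted of the class was H2-Oa, the other chain of DO, with 0 reads in mouse 72, and 22.81% of its exons overlap a gene on the opposite strand.

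Of the 13 T cell genes, 6 did not pass the filter over all 16 mice. Cd3d had 0 to 18 reads per mouse, Cd3e 1 to 33, Cd5 0 to 13, Cd8a 0 to 28, Cd8b1 0 to 10 and Zap70 0 to 13. Each of these 6 had its most reads in mouse 463, though per library size Cd3d was highest in mouse 5492 and Cd5, Cd8b1 and Zap70 in mouse 5489. Cd8a, which encodes a coreceptor of cytotoxic T cells, was at 0 in 4 mice. These genes were not tested in the 3 comparisons with the filter on, and 1 of them, Cd3d, passed the filter on the 12 untreated mice and is among the 31 of the interaction.

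Cd3g (chr9:44969572-44980431), a chain of the T cell receptor complex, was at 1.14, 1.54, 0.170, 0.457 and 0.182 CPM in WT mice. It was at 0 to 1.24 CPM with a median of 0.376 in Lep(ob/ob) mice, where mouse 441 had 0 reads, which allows up to 0.213 CPM (3 counts). The CCKR-I values were 0.897, 0.158, 0.121 and 0.337 CPM. All groups held mice near the level of a few reads, and the log2 fold change of -0.49 in Lep(ob/ob) against WT was within its standard error of 0.77.

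Cd2, an adhesion receptor of lymphocytes, was at 1.06, 1.34, 0.737, 0.640 and 0.851 CPM in WT mice, and at 1.48, 0.317, 0.121 and 0.674 CPM in CCKR-I mice. Lep(ob/ob) mice ran from 0.0465 (mouse 447, 1 read) through 0.699 to 5.37 CPM (mouse 463). The WT mice were close together and the obese mice on both sides of them. The log2 fold change was 0.04 in Lep(ob/ob) against WT and -1.61 (SE 0.76, unadjusted p = 0.0512, adjusted p = 0.353, edgeR) in CCKR-I against Lep(ob/ob). Leaving out each mouse, the latter ran from -2.45 to -0.60, nearest 0 without mouse 463.

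Il7r, the interleukin 7 receptor chain of naive and memory T cells, was at 0.985, 1.94, 0.963, 0.640 and 0.486 CPM in WT mice. It ran from 0.142 (mouse 441) through 0.962 to 7.66 CPM (mouse 463) in Lep(ob/ob) mice and was 3.99, 1.16, 0.911 and 1.28 CPM in CCKR-I mice. It was the member with the highest log2 fold change in Lep(ob/ob) against WT (0.58, adjusted p = 0.692). Lck had log2 fold changes of -0.43 and -0.20 in Lep(ob/ob) against WT and CCKR-I against Lep(ob/ob), with standard errors of 0.62 and 0.68. Cd4 was at 1.06, 2.41, 0.737, 0.183 and 0.122 CPM in WT mice, so that the 3 of batch A were above the 2 of batch B, and at 1.21, 0.422, 0.0607 and 0.135 CPM in CCKR-I mice. In untreated Lep(ob/ob) mice Cd4 ran from 0.093 (mouse 447, 2 reads) through 0.574 to 1.32 CPM (mouse 463). Cd28, the costimulatory receptor of T cells, spanned less, from 0.182 to 1.28 CPM over all 16 mice.

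Tcf7 (chr11:52252371-52283014) did not follow the mice in this way. It was at 4.85, 5.61, 5.27, 4.02 and 2.37 CPM in WT mice and ran from 2.87 (mouse 464) through 4.86 to 5.95 CPM in Lep(ob/ob) mice, where its highest mouse was 447, the lowest for 16 of the members. In CCKR-I mice it was at 2.74, 2.01, 2.37 and 3.37 CPM. Of these, 3 lay below every Lep(ob/ob) mouse, and the groups overlapped through mouse 76. The log2 fold change was 0.07 (SE 0.18, adjusted p = 0.85) in Lep(ob/ob) against WT and -0.45 (SE 0.22, unadjusted p = 0.0629, adjusted p = 0.369) in CCKR-I against Lep(ob/ob).

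Homing genes were also low. Ccr7, the receptor that brings naive T cells and dendritic cells into lymph nodes, was at 1.74, 1.07, 0.227, 0.0914 and 0.182 CPM in WT mice and at 0.179, 0.317, 0.0607 and 0.876 CPM in CCKR-I mice. Lep(ob/ob) mice ran from 0.0711 (mouse 441, 1 read) through 0.306 to 0.778 CPM (mouse 463). Its highest value was in WT mouse 5489 and not in mouse 463, and the groups overlapped. With a log2 fold change of -0.69 (unadjusted p = 0.356, adjusted p = 0.611), it had the smallest p of all members in Lep(ob/ob) against WT.

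Cxcr5 (chr9:44511787-44561877), the receptor that brings B cells into follicles, was at 0.91, 2.34, 0.68, 0.183 and 0.243 CPM in WT mice. In Lep(ob/ob) mice it ran from 0.0465 (mouse 447, 1 read) through 0.743 to 3.69 CPM (mouse 463), and in CCKR-I mice it was 0.897, 0.264, 0.121 and 0.539 CPM. Mouse 463 was again the highest. Its log2 fold change in CCKR-I against Lep(ob/ob) was -1.67 (SE 0.91, adjusted p = 0.404), the lowest of the 34, and -0.82 without mouse 463. Ltb, a lymphotoxin chain that organises lymphoid tissue, had 0 reads in mouse 441, which allows up to 0.213 CPM, and a log2 fold change of -0.55 in that comparison.

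Coro1a, an actin regulator of white blood cells, was at 8.26, 15.03, 6.57, 5.94 and 4.20 CPM in WT mice and from 2.09 (mouse 447) through 5.64 to 17.1 CPM (mouse 463) in Lep(ob/ob) mice. CCKR-I mouse 69 had 8.16 CPM and the other 3 had 2.96, 3.04 and 3.44 CPM. The log2 fold change was -0.10 in Lep(ob/ob) against WT and -0.90 in CCKR-I against Lep(ob/ob). Cd52, a small surface glycoprotein of lymphocytes, had -0.27 and -0.85. Of the exons of Cd52, 14.49% overlap a gene on the opposite strand, and the strand setting of the counting was not given in the sources used here.

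Proglumide and lorglumide, a related glutamic acid derivative, were given at different doses to 2 mice each, so no comparison between them was made. The B cell level was 2.00 and -0.53 in the proglumide mice and -0.25 and 0.51 in the lorglumide mice. The MHC class II level was 1.69 and 0.69 beside 0.34 and 0.90. Proglumide mouse 69 exceeded its partner 72 for 33 of 34 genes, by a median of 1.56 on the log2 scale (2.95-fold).

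Adipocyte and macrophage genes were high in some of the mice that were high in the members, and not in all of them. The level of 10 adipocyte genes was 1.89, 4.34, 4.16, 3.18 and 3.14 (median log2 CPM) in WT mice, 6.52, 4.66, 4.21 and 3.72 in CCKR-I mice and between 2.95 and 7.20 in Lep(ob/ob) mice. Mice 463, 69, 417 and 461 had ranks 1, 2, 3 and 4 of 16 for it, and ranks 1, 3, 5 and 4 for the B cell level. The summed level of the adipocyte genes was 170.2 to 412 CPM in WT mice, 208 to 3675 CPM in untreated Lep(ob/ob) mice and 421 to 2440 CPM in CCKR-I mice. The other mice did not all follow: WT mouse 5492 had rank 2 for the B cell level and rank 7 for the adipocyte level, WT mouse 5489 ranks 6 and 16, and CCKR-I mouse 72 ranks 14 and 5. Macrophage genes (12) had a level of 3.35 to 3.65 in WT mice, 2.71 to 5.73 in untreated Lep(ob/ob) mice and 2.97 to 4.38 in CCKR-I mice, again highest in mouse 463, and their summed level was 175 to 265, 103 to 1003 and 132 to 375 CPM. In CCKR-I against Lep(ob/ob), 10 of 12 macrophage genes were lower at an unadjusted p under 0.05 with 0 called, where 6.73% of all genes were lower at that threshold and 0.0586% were called. Their part in the levels of the members was not tested.

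**Figure D5:**
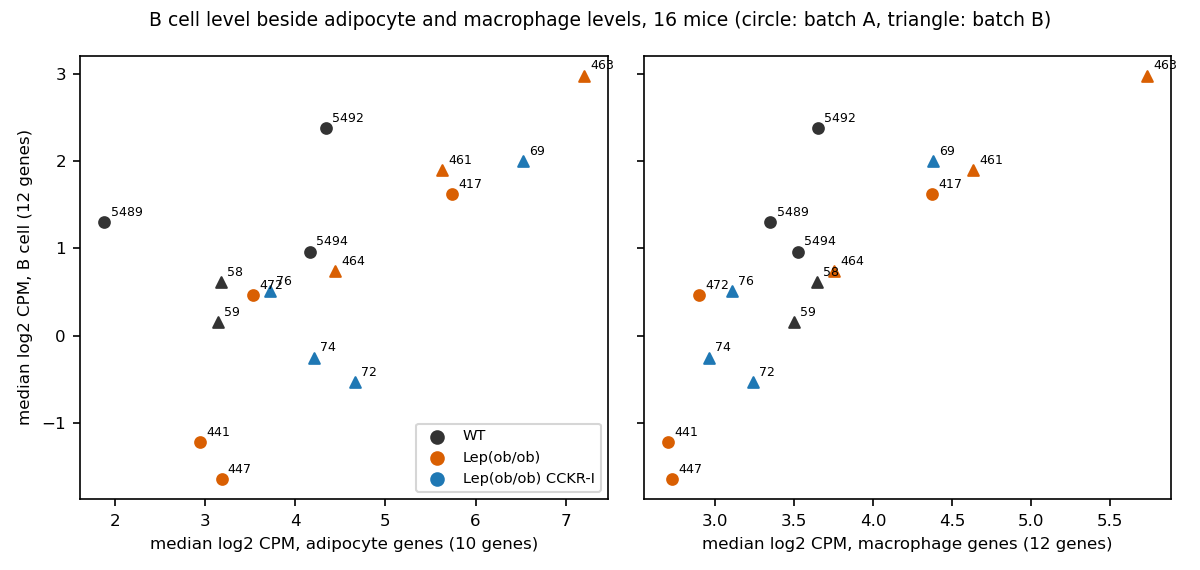
The B cell level of each mouse is drawn against its adipocyte level and its macrophage level (all median log2 CPM), coloured by group, with circles for batch A and triangles for batch B. Mouse 463 is at the upper right of both panels, and WT mouse 5492 has a B cell level of 2.38 at an adipocyte level of 4.34.

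For lymph node tissue, 4 of 11 listed stroma and venule genes in the table could be tested, with 0 called in the 3 comparisons. Cxcl13, the chemokine of B cell follicles, had 72 to 318 reads in WT mice, 11 (mouse 447) to 1484 (mouse 463) in untreated Lep(ob/ob) mice and 33 to 603 (mouse 69) in CCKR-I mice. Glycam1, a marker of high endothelial venules, had 0 to 13 reads per mouse, and Madcam1 1 to 8. Ccl21a, Ccl21b and Ccl21c, the T zone chemokine genes, near-identical copies of each other, were at 0 in all 16 mice. Reads that match several copies may not have been counted, so a count of 0 does not show that these genes were silent. The summed level of the tested stroma and venule genes was 24.5 to 64.2 CPM in WT mice, 23.9 to 143 CPM in untreated Lep(ob/ob) mice and 20.4 to 76.4 CPM in CCKR-I mice. Whether a piece of lymph node was in a sample was not tested.

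Further genes of the same cells were listed beside the members. Of 15 further B cell genes tested, which include the member Blk, 0 were called in any of the 3 comparisons by edgeR and 0 had an unadjusted p under 0.05, and their median log2 fold changes were -0.01, -0.66 and -0.67. Of the 20 further T cell genes, 3 could be tested and 0 were called. MHC class I presentation genes, which most cells express, were all 10 tested with 0 called, and 1, 3 and 3 of them were lower at an unadjusted p under 0.05 in the 3 comparisons in the order given above, where 11.6%, 6.73% and 7.28% of all genes were. Among 8 tested dendritic cell genes 0 were called, with 2, 1 and 2 lower at that threshold. Of 5 tested NK and cytotoxic genes and 5 tested plasma cell genes 0 were called in the 3 comparisons, with 1, 0 and 1 NK and 0, 1 and 2 plasma cell genes lower at that threshold. Of the 15 listed plasma cell and immunoglobulin genes 6 were in the deposited counts, and of the 20 further T cell genes 17. The constant region genes of antibodies and of the T cell receptor were not analysed here.

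Leaving out the 4 mice that an earlier analysis had found high in lymphocyte and adipocyte genes (Lep(ob/ob) 417, 461 and 463 and CCKR-I 69) changed the picture. Then 11 of 30 tested members were called lower in Lep(ob/ob) against WT, with a median log2 fold change of -1.17, where 12.3% of all genes were called. H2-Ab1 (log2 fold change -1.21, adjusted p = 0.00544), Ciita (-1.46, adjusted p = 0.00721) and Cd74 (-1.08, adjusted p = 0.00961) were among them. In CCKR-I against Lep(ob/ob) without those mice, 0 of 30 were called (0.0733% of all genes), 0 had an unadjusted p under 0.05 by edgeR (6.1% of all genes), and 18 of 30 log2 fold changes were above 0. In CCKR-I against WT 1 of 30 was called, H2-Ab1 at -1.23 (adjusted p = 0.0343), beside 9.64% of all genes. Because those mice were picked for their high level of these very genes, and none of them was WT, the lower values in Lep(ob/ob) follow in part from the choice and are given as a description.

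With the adipocyte level as a covariate over all 16 mice, 3 of 34 members were called lower in Lep(ob/ob) against WT, where 14.6% of all genes were called. These were Bank1 (-1.06, adjusted p = 0.00812), Ciita (-0.86, adjusted p = 0.0451) and H2-Ab1 (-0.74, adjusted p = 0.0452). In CCKR-I against WT 11 of 34 were called lower, where 12.9% of all genes were, with H2-Ab1 at -1.53 (adjusted p = 0.00233) and Cd74 at -1.41 (adjusted p = 0.00403). In CCKR-I against Lep(ob/ob) 0 of 34 were called by edgeR (2.77% of all genes), with 7 at an unadjusted p under 0.05, where 21.4% of all genes were. The adipocyte level came from the same libraries and was highest in mice 463, 69, 417 and 461, the mice left out above. The calls with this covariate are therefore also given as a description. With only the mice of the 2 groups compared and no batch term, 1 of 29 tested members was called in CCKR-I against Lep(ob/ob), where 15.1% of all genes were. In CCKR-I against WT it was 1 of 23, where 11.5% of all genes were called.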

How the data were processed

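Whole pancreas from 16 mice was measured by poly-A RNA-seq, 1 strand-specific library per mouse. According to the submitters' processing notes, the authors used Trim Galore 0.6.7 with cutadapt 3.5 for trimming and STAR 2.7.9 for alignment to mm10. The counter, its strand setting and the annotation were not given in the sources used here. The deposited table holds raw counts per gene symbol, whole numbers made by the authors and used here as they were. A second deposited table of normalized counts was not used here. The 40 genes, the further lists and the alternatives were chosen with earlier results of these data known.

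Groups and batches came from the labels. Genes were filtered with filterByExpr (13660 of 24411 kept), scaled by TMM, and fitted in edgeR 4.0.16 (R 4.3.3) with a group and a batch term over all 16 mice. The quasi-likelihood test was two-sided, with Benjamini-Hochberg adjustment over all 13660 genes and a threshold of 0.05. The interaction of genotype and batch was fitted on the 12 untreated mice. Levels were log2 CPM with a prior count of 2. DESeq2 1.42.0, other normalizations and filters, single batches, single antagonists, only the 2 groups compared, an adipocyte covariate, and leaving out mice were the alternatives. The fitting was tested on simulated data. Libraries held 9.87 to 34.5 M counts, TMM factors were 0.558 to 2.15, and a count of 0 allows up to 3 counts, for counting error only. No 2 libraries agreed within sampling noise (chi-square per gene at least 8.57). Values given in full belong to the 3 members of each class with the highest mean level and the 3 with the smallest p in Lep(ob/ob) against WT, beside any called. H2-DMb1, Cd4 and the T cell genes below the filter were added after their values were seen. Positions are from the GENCODE annotation of GRCm38 (mm10) and promoters from RefSeq. 1 gene beyond the 40 that ranked among those most like the T cell median is not reported here.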

Additional observations from a re-analysis of the deposited data

Results flagged for a closer look

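In 1 of 78 sets of values that were looked at, the level of a member or class in 1 group, a mouse stood apart from the rest of its group by Dixon's test at the 95% level. Coro1a in CCKR-I mouse 69 had a log2 CPM of 3.05, against 1.83 in the nearest CCKR-I mouse, a gap of 0.853 of the whole range of the 4 mice. Chance alone sets apart about 1 in 20 such sets.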

How the results depend on the processing

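The 0 called members of the 3 comparisons stayed 0 with DESeq2, RLE size factors, normalization without the 50 most counted genes, no low-count filter, a minimum of 10 counts per mouse (11 members tested), no batch term, single batches and single antagonists, and without any 1 mouse. Other counts came without the 4 mice named above (11 in Lep(ob/ob) against WT, 1 in CCKR-I against WT), with the adipocyte covariate (3 and 11 in these) and with only the 2 groups compared, which for CCKR-I had no batch term (1 each in CCKR-I against Lep(ob/ob), Tcf7 at -0.82, where 15.1% of all genes were called, and in CCKR-I against WT, H2-Ab1 at -1.31, where 11.5% were). The interaction kept 0 called under 4 alternatives added after seeing the data, and 0 to 2 without any 1 mouse. For these interaction fits the share of all genes called was not worked out. Leaving out each mouse, also added after seeing the data, the median within-batch difference ran from -1.69 to -0.96 in Lep(ob/ob) against WT in batch A and from 0.82 to 1.77 in batch B, and in batch B from -1.72 to -0.75 in CCKR-I against Lep(ob/ob) and from -0.35 to 0.31 in CCKR-I against WT. The cause was not tested. No paired analysis was possible because the groups share no replicate numbers. At this depth 6 T cell genes did not pass the filter over all 16 mice, and others were at 1 to 3 reads in some mice.

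Of 225, 247 and 244 values of the 22 named members under these alternatives in the 3 comparisons, 37, 20 and 16 turned their sign, none of which had passed the test. In Lep(ob/ob) against WT, these were, by log2 fold change, Cd79b 1.66, Ms4a1 1.79, Cr2 1.39, Bank1 0.97, Cd74 1.15, H2-Aa 1.04, H2-Ab1 0.93, H2-Eb1 1.09, H2-Ob 1.01, Ciita 1.23, Cd3g 1.01, Lck 1.22, Ccr7 1.93, Ltb 1.77, Cd52 1.13 and Coro1a 1.03 in batch B alone; Cd37 -0.75, Jchain -0.98, Cd2 -1.14, Il7r -0.53 and Cxcr5 -0.81 in batch A alone; Cd37 -0.74, Jchain -0.58, Cd2 -0.81, Il7r -0.78, Tcf7 -0.019 and Cxcr5 -0.99 without the 4 mice; Cd37 -0.39, Jchain -0.11, Cd2 -0.47, Il7r -0.079 and Cxcr5 -0.14 with the adipocyte covariate; Ms4a1 0.17, Cd74 0.043, H2-Eb1 0.020 and Cd52 0.12 without a batch term; and Cd2 -0.086 with DESeq2. In CCKR-I against Lep(ob/ob), they were Cd79b 0.84, Cr2 0.0099, Bank1 0.55, Cd74 0.090, H2-Aa 0.33, Ciita 0.76, Lck 0.13, Il7r 1.20, Ccr7 2.27, Cxcr5 0.21 and Cd52 0.25 without the 4 mice; Cd3g 0.082, Il7r 0.076 and Ccr7 0.047 with the adipocyte covariate; Cr2 0.019 and Lck 0.0027 without a batch term; Cr2 0.42, Cd3g 0.17 and Lck 0.27 with proglumide alone; and Ccr7 0.32 with lorglumide alone. In CCKR-I against WT, they were Cd79b 0.47, Ms4a1 0.38, Cr2 0.68, Cd37 0.64, Jchain 1.12, H2-Ob 0.086, Ciita 0.16, Cd3g 0.36, Lck 0.61, Ccr7 1.24, Ltb 0.74 and Cxcr5 1.08 in batch B alone; Ccr7 0.60 without the 4 mice; Il7r -0.0031 with the covariate; Jchain 0.032 with proglumide alone; and Il7r -0.63 with lorglumide alone.

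Leaving out each mouse in turn gave these ranges where a sign turned. In Lep(ob/ob) against WT: Bank1 -0.84 to 0.16, Cd2 -0.42 to 0.37, Cd37 -0.27 to 0.42, Cd52 -0.65 to 0.17, Cd74 -0.47 to 0.19, Cd79b -0.76 to 0.26, Coro1a -0.41 to 0.26, Cxcr5 -0.13 to 1.15, H2-Aa -0.55 to 0.039, H2-Eb1 -0.49 to 0.15, H2-Ob -0.73 to 0.17, Jchain -0.46 to 0.88, Ltb -0.72 to 0.39, Ms4a1 -0.86 to 0.21 and Tcf7 -0.053 to 0.15. In CCKR-I against Lep(ob/ob): Ccr7 -0.95 to 0.24, Cd37 -1.75 to 0.15, Cd3g -1.19 to 0.0088, Cd79b -1.25 to 0.11, Ciita -1.02 to 0.095, Cr2 -1.61 to 0.25, H2-Ob -1.34 to 0.21, Il7r -1.21 to 0.83, Lck -0.67 to 0.60 and Ltb -0.82 to 0.23. In CCKR-I against WT: Il7r -0.61 to 0.89. The highest value in Lep(ob/ob) against WT came without WT mouse 5492 for 13 of these 15, and in CCKR-I against Lep(ob/ob) without Lep(ob/ob) mouse 463 for 8 of 10. Over all tested members, the median log2 fold change ran from -0.62 to 0.26, from -1.41 to -0.06 and from -1.65 to -0.60 in the 3 comparisons.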
